A study of Gallus gallus with 5 samples.

Results

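The cells described here came from 1 library, HH8-HH4 3 hr, in which somite progenitors of HH8 chicken embryos had been grafted into HH4 embryos and left for 3 hr. HH (Hamburger-Hamilton) stages order chicken development, HH4 being the fully extended primitive streak and HH8 an early somite stage. Graft cells were taken as the barcodes with at least 2000 unique molecular identifiers (UMIs, each a counted RNA molecule) and at least 3 UMIs of eGFP. Host cells were the barcodes with at least 2000 UMIs and 0 UMIs of eGFP. This gave 116 HH8 graft and 232 HH4 host cells of 943 barcodes in the library, and of 11137 barcodes over the libraries of the series.

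The series used 10x Genomics 3′ single-cell RNA-sequencing on chicken gastrula tissue containing grafts of HH4 into HH4 or of HH8 into HH4, at 0 hr and 3 hr. Donor embryos carried eGFP and hosts were wild type, the graft was placed at the corresponding site of the host streak, and hosts were kept in New culture. Labelled and unlabelled cells of a condition were dissected, pooled over several embryos, dissociated with trypsin and sequenced together, so that graft and host cells of HH8-HH4 3 hr shared 1 pool and 1 library. HH8-HH4 0 hr, the same graft at the time of grafting, and HH4-HH4 3 hr, the stage-matched graft, are used below for comparison, with graft and host cells chosen by the same rule. There was 1 library per condition and the cells of a library are not replicates, so no p-value is given, and the 95% intervals cover counting error only.

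Somite progenitors lie in the anterior primitive streak just behind the node, the organizer of the bird embryo, which secretes inhibitors of bone morphogenetic protein (BMP) signalling such as chordin. Cells leave the streak by an epithelial-to-mesenchymal transition and enter the paraxial mesoderm, where T, TBX6 and MSGN1 mark the early steps. HOX genes are switched on in the order of their position along each cluster, so that cells of later stages carry more posterior HOX genes, and CDX factors act upstream of many of them.

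Median depth was similar in both groups, at 19188 UMIs per HH8 graft cell (2902 to 55257) and 20814 per HH4 host cell (2220 to 73377). Shallow cells were more frequent among host cells, with 10th percentiles of 7538 UMIs in graft and 3718 in host cells. At least 5000 UMIs were held by 110 of 116 graft and 186 of 232 host cells. The sums were 2312103 UMIs over graft cells and 4774959 over host cells. Graft cells held 3 to 86 eGFP UMIs with a median of 22. A further 61 barcodes with 1 or 2 eGFP UMIs and 534 barcodes under 2000 UMIs, with a median of 559 UMIs, were left out. Of the chosen cells, 2 host cells carried a barcode sequence that also occurred in another library, and leaving them out gave the same count of 86 higher genes and 115 in place of 116 lower genes.

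The limit on eGFP separated cells with different HOX content. Levels are the UMIs of a gene per 1000000 UMIs of a group (CPM), and those of HOXA7 were 781 (95% Poisson interval 585 to 1021) in the 5 cells with 3 or 4 eGFP UMIs, just inside the limit, against 111 (69.4 to 168) in the 9 cells with 2 and 35.5 (26.1 to 47.2) in the 52 cells with 1, just outside it. Cells with 5 or more eGFP UMIs held 1612 to 2360 CPM of HOXA7 per class, against 20.3 CPM in host cells. T ran the other way, with 1311 CPM in cells with 3 or 4 eGFP UMIs, 940 with 5 to 9, 504 with 10 to 19, 385 with 20 to 39 and 337 with 40 or more, against 2004 CPM in host cells. In these sums, classes of graft cells with fewer eGFP UMIs thus had the higher T level. The classes with 3 to 9 eGFP UMIs were also shallower, with medians of 7475 and 7788.5 UMIs per cell. The 1311 CPM (1053 to 1613) rests on 5 cells, 1 of which had 38344 UMIs, far above the class median. That cell held 1669 CPM of T, 1252 CPM of CHRD, 26.1 CPM of HOXA7 and no HOXB8 or CDX4 UMI. Whether it was a host cell was not tested. At the limit on depth, the shallowest graft cell, with 2902 UMIs, held 0 CPM of HOXA7 and 689 CPM of HOXB8, against 232 and 28.9 CPM in the 13 shallowest host cells, with a median of 2656 UMIs. In the barcodes just outside this limit, from 1000 UMIs up, the 2 with at least 3 eGFP UMIs held 1370 CPM of HOXA7, 0 CPM of HOXB8 and 10616 CPM of CHRD, against 448, 160 and 2831 CPM in the 45 with none. At these depths the genes did not share 1 direction, and the values of the eGFP-positive barcodes rest on few UMIs.

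**Figure D1:**
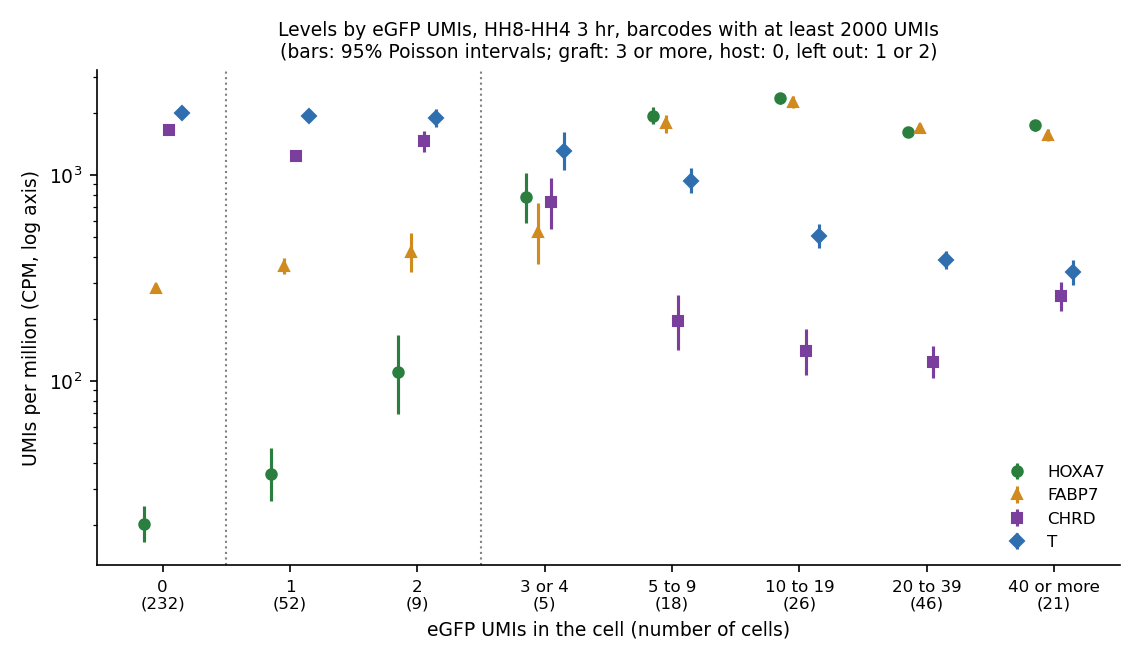
Levels of HOXA7, FABP7, CHRD and T (CPM, log axis) in cells grouped by eGFP UMIs, with the number of cells in brackets and 95% Poisson intervals as bars. HOXA7 was 20.3 CPM in the 232 cells with 0 eGFP UMIs and 781 CPM or more in every class with at least 3, while T lay between 337 and 1311 CPM in those classes and at 2004 CPM in host cells.

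Markers of the labelled tissue were present in both groups. CDH2, the cadherin of mesenchymal and neural cells, exceeded CDH1, that of epithelia, in 91 of 116 graft cells and 199 of 232 host cells, CDH1 exceeded CDH2 in 14 graft and 20 host cells, and the rest were equal. T was found in 109 of 116 graft cells and 229 of 232 host cells, and after each cell was thinned to 2000 UMIs in 47.4% of graft cells (55 cells) and 89.7% of host cells (208 cells). How far T UMIs in graft cells came from free RNA of host cells in the same pool was not tested.

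Of 6940 features, 3542 genes had at least 100 UMIs over graft and host cells and were compared, eGFP excluded. The log2 ratio of graft over host cells was taken after adding 10 CPM to both levels, which understates the difference of low genes. By this measure 86 genes (2.43%) were at least 2-fold higher in HH8 graft cells and 116 (3.27%) at least 2-fold lower, and the median over all compared genes was −0.05. The counting intervals of graft and host level did not overlap for any of the 86 and 116 genes. This follows largely from the limits of 100 UMIs and 2-fold and is no separate support for the calls. The share over all compared genes is not given.

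HOX genes made up 9 of the 15 genes with the largest ratios. Of 23 HOX features, 10 reached 100 UMIs, of which 9 were at least 2-fold higher in graft cells and 0 lower, with a median log2 ratio of 3.25, beside −0.05 over all genes. HOXA7, of the central part of its cluster, held 1794 CPM (1739 to 1849) in HH8 graft cells and 20.3 CPM (16.5 to 24.8) in HH4 host cells, an 88.3-fold difference (72.2 to 109). Over single graft cells its level had a minimum of 0, a median of 1555 and a maximum of 7275 CPM, against 0, 0 and 5664 CPM over host cells. A HOXA7 UMI was found in 100 of 116 graft cells and 61 of 232 host cells, so that the groups overlapped, and 1 host cell held 24 of the 97 host UMIs. That cell, with 4237 UMIs in all and 0 of eGFP, also held 6372 CPM of FABP7, 944 CPM of CDX4 and no CHRD or MIXL1 UMI.

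HOXB8 was at 999.5 CPM (959 to 1041) in graft cells and 7.33 CPM (5.11 to 10.2) in host cells. Its level over single graft cells ranged from 0 to 3683 CPM with a median of 1073, against 0 to 1416 CPM with a median of 0 in host cells. After each cell was thinned to 2000 UMIs, a HOXB8 UMI was found in 69.8% of graft cells (exact binomial interval 60.6 to 78.0) and 3.88% of host cells (1.79 to 7.24), compared with 90.5% and 11.6% before thinning. Host cells with a UMI of SOX17, an endoderm factor, were taken as cells that should lack posterior HOX genes. They were no clean endoderm set, since 54 of the 55 also held a T UMI and 34 an MSGN1 UMI. After thinning, 16 of the 55 kept a SOX17 UMI. Of these 55 cells, which are part of the 232, 7.27% (2.02 to 17.6) kept a HOXB8 UMI after thinning, at a median of 26434 UMIs per cell before it. The intervals of both host shares overlapped, but the 55 cells were mixed and part of the 232, so this overlap cannot decide where the UMIs came from. The source of the HOXB8 UMIs in host cells was not tested. For HOXA7 the thinned shares were 68.1% of graft cells (58.8 to 76.4), 6.47% of host cells (3.66 to 10.4) and 5.45% of host cells with SOX17 (1.14 to 15.1).

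The remaining HOX genes were lower in level but similarly separated. Among anterior and middle members, graft and host cells held 159 and 3.98 CPM of HOXA4, 106 and 1.47 CPM of HOXB5, 92.1 and 1.05 CPM of HOXA5, 108 and 2.09 CPM of HOXA6, and 74.8 and 0.838 CPM of HOXD4. Among the most posterior members with at least 100 UMIs, HOXA9 had 151 UMIs in graft cells and 2 in host cells, a ratio of 156 with a counting interval from 42.4 to 1299. HOXC9 had 109 UMIs in 42 of 116 graft cells and 0 UMIs in 232 host cells, which is at least 75.0-fold higher in graft cells against the level of 3 UMIs over all host cells (0.628 CPM), and 0 of 232 host cells allows a share of cells with a HOXC9 UMI of up to 1.29%, which is no limit on cells that express it. HOXA2, HOXB4, HOXC8 and HOXD8, each under 100 UMIs in all, held 18.2 to 35.9 CPM in graft cells and at most 1.47 CPM in host cells. Further towards the 5′ ends of the clusters, HOXA10, HOXA11, HOXA13 and HOXD13 had 1 UMI each in graft cells and 0 in host cells, and HOXD11, HOXC10 and HOXD12 had none in either group.

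HOXB1, which in vertebrate embryos comes on early in the streak, was the exception. Its level was 252 CPM (232 to 273) in graft cells and 196 CPM (183 to 209) in host cells, a log2 ratio of 0.35. HOXB1 was thus the 1 HOX gene with at least 100 UMIs that was within 2-fold in graft and host cells.

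**Figure D2:**
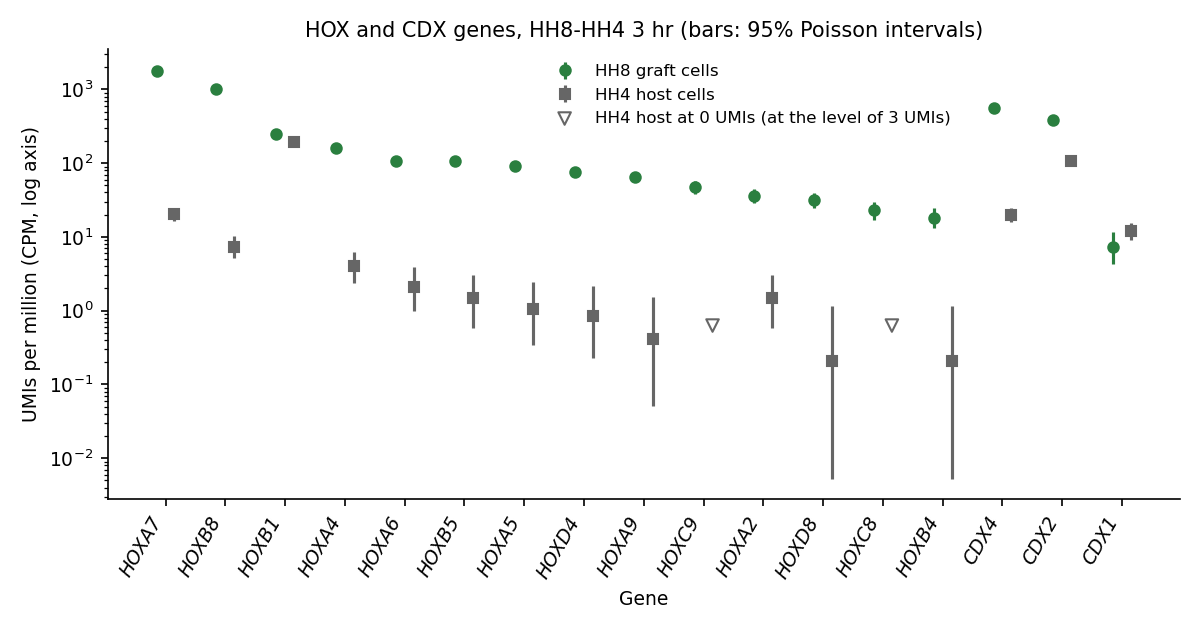
Levels of HOX and CDX genes with at least 30 UMIs (CPM, log axis) in HH8 graft cells (circles) and HH4 host cells (squares), with 95% Poisson intervals as bars and open triangles at the level of 3 UMIs for genes without a host UMI. HOXA7 stood at 1794 CPM in graft and 20.3 CPM in host cells, whereas HOXB1 stood at 252 and 196 CPM.

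CDX genes, which encode caudal-type homeodomain factors, divided by member. CDX4 was at 556 CPM (526 to 587) in graft cells and 19.9 CPM (16.1 to 24.3) in host cells, a log2 ratio of 4.24, and its median over single cells was 478 CPM in graft and 0 CPM in host cells. CDX2 was at 388 and 108 CPM, a log2 ratio of 1.76. CDX1 was low in both, at 7.35 CPM (4.28 to 11.8) in graft and 11.9 CPM (9.04 to 15.5) in host cells, with overlapping intervals.

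Signals of the posterior streak did not share 1 direction. Of 21 WNT and FGF genes with at least 100 UMIs, 3 were at least 2-fold higher and 2 lower in graft cells, with a median log2 ratio of 0.04. WNT5A, a ligand of non-canonical WNT signalling, was at 285 CPM (264 to 308) in graft and 44.2 CPM (38.4 to 50.6) in host cells. WNT8A, a canonical ligand of the streak, was at 375 and 128 CPM, and SP8, a zinc-finger factor, at 59.7 and 20.7 CPM. SP5, a target of canonical WNT signalling, was at 106 and 448 CPM, and the receptor FZD7 at 19.03 and 50.5 CPM. FGF8, the ligand that forms the posterior gradient, had a log2 ratio of 0.58 and WNT3A of 0.32, both within 2-fold.

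The ligand BMP2 and some BMP targets were higher in graft cells, and some BMP inhibitors and modulators were lower. Of 11 BMP ligands and targets compared, 6 were at least 2-fold higher in graft cells and 0 lower, beside 2.43% and 3.27% of all compared genes. Their median log2 ratio was 1.01. The ligand BMP2 was at 90.8 CPM in graft and 40.2 CPM in host cells, and the targets ID1, ID2 and ID3, inhibitors of basic helix-loop-helix factors, had log2 ratios of 1.34, 1.33 and 1.29. MSX1, a homeodomain factor induced by BMP, was at 464 CPM (436 to 492) in graft and 110 CPM (101 to 120) in host cells. Its paralogue MSX2 had 177 UMIs in 54 of 116 graft cells and 5 UMIs in 3 of 232 host cells, a log2 ratio of 2.97. BMP4, ID4, SMAD6, BAMBI and GATA2 lay between 0.09 and 0.83. Lowest log2 ratios over the alternative settings were within 2-fold for BMP2 (0.81), ID1 (0.97), ID2 (0.89) and ID3 (0.87). For MSX1 and MSX2 they were 1.53 and 2.35.

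CHRD (chordin), which binds BMPs outside the cell, had the second lowest ratio of all genes. It was at 186 CPM (168 to 204) in graft cells and 1647 CPM (1610 to 1683) in host cells, a log2 ratio of −3.08. Single graft cells ranged from 0 to 3479 CPM with a median of 65.0, against 0 to 25102 CPM with a median of 850 in host cells. The graft sum rests much on few cells, since 1 graft cell held 90 of its 429 CHRD UMIs and others reached 1926 and 1252 CPM. Whether such cells were doublets or host cells was not tested. A CHRD UMI was found in 81 of 116 graft cells and 221 of 232 host cells, and after thinning in 19.8% (13.0 to 28.3) and 71.6% (65.3 to 77.3). ADMP, a BMP-like ligand of the organizer, was at 6.49 and 82.5 CPM and CER1, a secreted inhibitor of Nodal and BMP, at 61.0 and 160 CPM. Of 7 genes in the list of inhibitors and modulators, 3 were at least 2-fold lower and 0 higher, and TWSG1 and FSTL1 differed by log2 ratios of 0.00 and 0.04.

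The node and organizer list was the one with the most genes on the host side. Of its 18 genes with at least 100 UMIs, 15 were at least 2-fold lower in graft cells and 0 higher, with a median log2 ratio of −2.04. FOXD3, a forkhead factor of the node, had 15 UMIs in 9 of 116 graft cells and 610 UMIs in 124 of 232 host cells. FOXA2, a forkhead factor of node, notochord and endoderm, had 17 UMIs in graft cells and 597 in host cells, and LHX1, a LIM-homeodomain factor of the organizer, 17 and 327. GSC (goosecoid), OTX2, NOTO, GNOT2, SFRP1 and STK26 had log2 ratios from −2.27 to −1.77. HHEX, SFRP2 and CNOT1 were within 2-fold, at −0.37, −0.12 and −0.14, and SHH, with 64 UMIs in all and so not compared, was at 1.73 CPM in graft and 12.6 CPM in host cells.

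Several mesendoderm factors followed the same direction, while the endoderm list was mixed. Of 14 endoderm genes compared, 6 were at least 2-fold lower and 1 (KRT7) higher in graft cells, with a median log2 ratio of −0.46. The other 7 were within 2-fold, among them GATA5 at 0.98 and APOA1 at 0.38. MIXL1, a homeodomain factor of the forming mesendoderm, was at 279 CPM (258 to 301) in graft cells and 2248 CPM (2206 to 2291) in host cells. Over single cells it ranged from 0 to 6339 CPM with a median of 42.4 in graft, against 0 to 8132 CPM with a median of 2595 in host cells. Host and graft cells overlapped over almost the whole range, while the medians lay far apart. The graft cell with most MIXL1 held 164 of the 645 graft UMIs, and it was also the graft cell with most CHRD. EOMES, a T-box factor, was at 49.7 and 378 CPM, and SOX17, of the endoderm, at 29.4 and 207 CPM, although 1 graft cell held 39 of the 68 graft UMIs of SOX17. In the Nodal pathway, the ligand GDF3, the co-receptor CFC1 and the inhibitor LEFTY1 had log2 ratios of −1.94, −1.18 and −1.69.

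**Figure D3:**
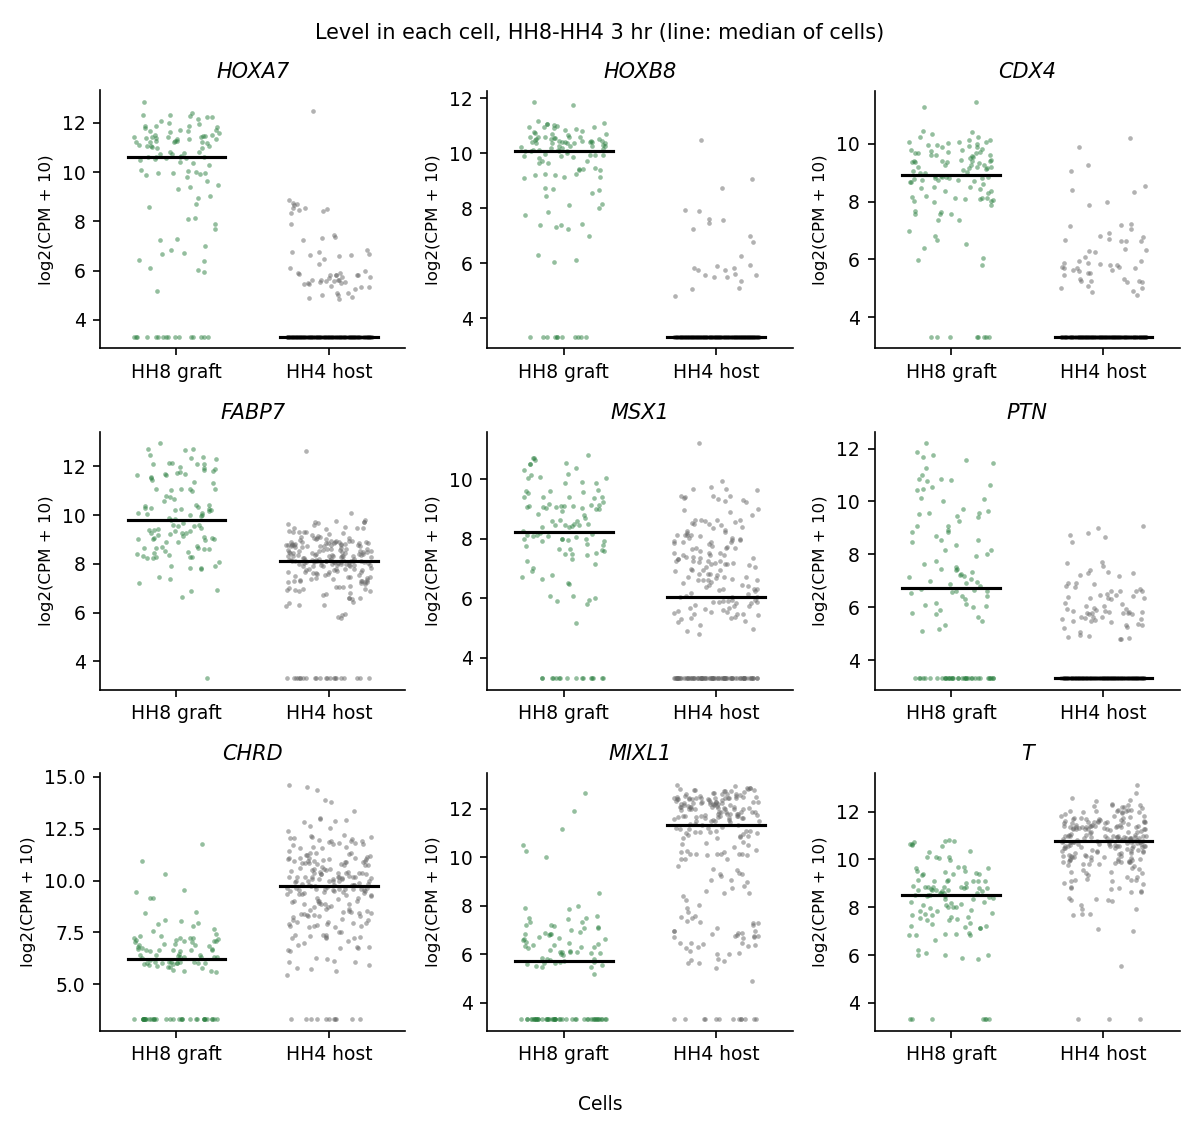
Level of 9 genes in each HH8 graft cell and each HH4 host cell, as log2 of CPM with 10 added, with the median of cells as a line. HOXA7, HOXB8 and CDX4 had a median of 0 CPM in host cells and of 478 CPM or more in graft cells, whereas T had medians of 356 CPM in graft and 1718 CPM in host cells.

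Several early mesoderm genes were lower in the graft. Among 13 primitive streak genes compared, 6 were at least 2-fold lower and 3 (CDX4, CDX2 and WNT8A) higher, with a median log2 ratio of −0.77. T (brachyury), which drives mesoderm formation, was at 476 CPM (448 to 505) in graft cells and 2004 CPM (1964 to 2045) in host cells. Its level over single cells reached from 0 to 1767 CPM with a median of 356 in graft, against 0 to 8902 CPM with a median of 1718 in host cells. MSGN1, a basic helix-loop-helix factor of the unsegmented paraxial mesoderm, was at 77.0 and 475 CPM and was found in 44 of 116 graft cells and 158 of 232 host cells. TBX6 was at 31.1 and 113 CPM, MESP1 at 45.8 and 223 CPM, and SNAI2, a repressor of epithelial genes, at 159 and 424 CPM. AGRP, a secreted melanocortin-receptor ligand, was at 112 and 534 CPM.

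Not all paraxial mesoderm genes lay on the host side. Of 19 with at least 100 UMIs, 5 were at least 2-fold lower and 2 higher in graft cells, with a median log2 ratio of −0.57. Those higher were HES5, an effector of Notch signalling, at 72.7 and 6.28 CPM, and MEOX1, a homeodomain factor of somites, at 72.7 and 26.0 CPM. The Notch ligand DLL1, the modulator LFNG and the somite factor TCF15 were at −0.23, 0.21 and 0.38, within 2-fold. NOTCH1 itself was at 278 CPM in graft and 95.1 CPM in host cells, and HES4 was at 124 and 266 CPM.

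Genes of the early epiblast were lower in graft cells in most cases. Of 15 compared, 9 were at least 2-fold lower and 1 higher, with a median log2 ratio of −1.47. Pou5f3, the bird relative of the pluripotency factor OCT4, was at 126 CPM in graft and 422 CPM in host cells, GJA1, a gap-junction protein, at 236 and 758 CPM, and ENS-3 had 2 UMIs in graft cells and 122 in host cells. The neural factor SOX3 was at 46.7 and 102 CPM, just within 2-fold. ASTL, an astacin-like protease, was the 1 gene on the other side, with a log2 ratio of 2.28, but 1 graft cell held 137 of its 287 UMIs in graft cells, and among cells with more CDH2 than CDH1 UMIs its log2 ratio was 0.14.

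Genes of the ectoderm and the border of the neural plate included some of the largest differences. Of 11 compared, 4 were at least 2-fold higher in graft cells and 0 lower, with a median log2 ratio of 0.65. FABP7, a fatty acid-binding protein, was at 1741 CPM (1688 to 1796) in graft cells and 282 CPM (267 to 297) in host cells. Its median over single cells was 882 CPM in graft, with a highest value of 7830, against 270 CPM in host cells with a highest value of 6372. DLX5, a distal-less homeodomain factor, was at 96.0 and 8.17 CPM, and TFAP2A, an AP-2 factor of surface ectoderm, at 42.8 and 3.56 CPM. Among cells with more CDH2 than CDH1 UMIs, TFAP2A was at 10.5 and 2.72 CPM, a log2 ratio of 0.69, within 2-fold. EPCAM and CLDN1, which join epithelial cells, had log2 ratios of −0.70 and −0.95, within 2-fold.

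Outside the gene lists, PTN was among the 15 genes with the largest ratios. PTN (pleiotrophin), a heparin-binding growth factor, was at 454 CPM (427 to 482) in graft cells and 38.1 CPM (32.8 to 44.1) in host cells, and single graft cells ranged from 0 to 4666 CPM with a median of 96.5. Among the 15 genes with the smallest ratios and outside the lists, PTGDS, a lipocalin-type prostaglandin synthase, was at 19.9 and 161 CPM and BCL11A, a zinc-finger repressor, at 11.2 and 101 CPM. SLC2A14 was at 32.01 and 219 CPM, and LOC395991, a gene without a name from the endoderm list, at 13.8 and 187 CPM.

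HINTW had the smallest ratio of all, at 260 CPM in graft and 2343 CPM in host cells. It is a multi-copy gene of the W chromosome, carried only by females in birds, and its near-identical copies make its count uncertain. At least 200 CPM was found in 7 of 116 graft cells (6.03%, exact binomial interval 2.46 to 12.04) and 90 of 232 host cells (38.8%, 32.5 to 45.4), and 2 graft cells held 492 of the 601 graft UMIs. The pooled donors and hosts were thus unequal in this gene. Among the 109 graft and 142 host cells under 200 CPM of HINTW, 86 genes were at least 2-fold higher and 120 lower in graft cells, and the other 29 genes of the 15 largest and 15 smallest ratios stayed past 2-fold in the same direction.

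Genes of the epithelial-to-mesenchymal transition were mostly within 2-fold. Of 12 transition factors and cadherins, 1 (SNAI2) was at least 2-fold lower and 0 higher, beside 3.27% and 2.43% of all compared genes. The median log2 ratio was −0.12, while the whole list summed to 2189 CPM in graft and 3412 CPM in host cells. SNAI2, CDH2, VIM, ZEB2 and EPCAM were lower in graft cells under every alternative setting, and ZEB1, SOX9 and NCAM1 higher. CDH2 was at 537 CPM (508 to 568) in graft and 941 CPM (914 to 969) in host cells, a log2 ratio of −0.80, and CDH1 at 67.0 CPM (56.9 to 78.5) and 63.5 CPM (56.5 to 71.0), with overlapping intervals. Of 21 adhesion genes that the study had listed from these same samples, 2 were higher and 1 lower, with a median of 0.07, and the list is not independent evidence of a direction. PRTG (protogenin), an immunoglobulin-type receptor, was at 1298 CPM (1252 to 1345) in graft and 385 CPM (368 to 403) in host cells. FN1 (fibronectin), on which mesoderm cells migrate, was at 522 CPM (493 to 552) and 168 CPM (157 to 180), and the cell adhesion molecule NFASC at 35.9 and 174 CPM.

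Of 18 matrix and integrin genes, 3 were at least 2-fold higher and 1 lower in graft cells. Besides FN1, the link protein HAPLN1 was at 123 and 31.6 CPM and the basement membrane collagen COL4A1 at 73.5 and 19.3 CPM, whereas HAS2, which makes hyaluronan, was at 41.1 and 102 CPM. Integrin ITGB1 and the proteoglycan VCAN had log2 ratios of 0.11 and −0.13. Fibronectin was thus higher in graft cells while its receptor subunit ITGB1 was within 2-fold.

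Among genes of developmental timing, LIN28A, an inhibitor of let-7 microRNAs, was at 340 CPM (317 to 365) in graft and 117 CPM (108 to 127) in host cells, and MYCN at 181 and 52.8 CPM. LIN28B, IGF2BP1, IGF2BP3 and TRIM71 lay between −0.18 and 0.28, and the list as a whole had 2 of 9 genes higher and 0 lower. The retinol receptor STRA6 was at 102 and 21.99 CPM, while of the other 5 retinoic acid genes compared 0 were past 2-fold. LDHB, a subunit of lactate dehydrogenase, was the 1 of 14 glycolysis genes past 2-fold, at 4449 and 2087 CPM.

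Several general cell functions were within 2-fold, although of 11 heat shock and immediate early genes 1 was at least 2-fold higher and 1 lower. Of 56 cytosolic ribosomal protein genes, 52 genes of oxidative phosphorylation, 26 of the cell cycle and 10 chaperones of the endoplasmic reticulum, 0 were past 2-fold in either direction, with medians of 0.14, −0.12, −0.04 and −0.16. Over all compared genes 2.43% were at least 2-fold higher and 3.27% lower, so 0 in the shorter lists was near that share. The largest single difference among them was HSPA5 (BiP), at 726 CPM in graft and 1439 CPM in host cells, a log2 ratio of −0.98. Under the alternative settings HSPA5 lay between −1.15 and −0.56, so the 0 for chaperones depends on the setting.

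**Figure D4:**
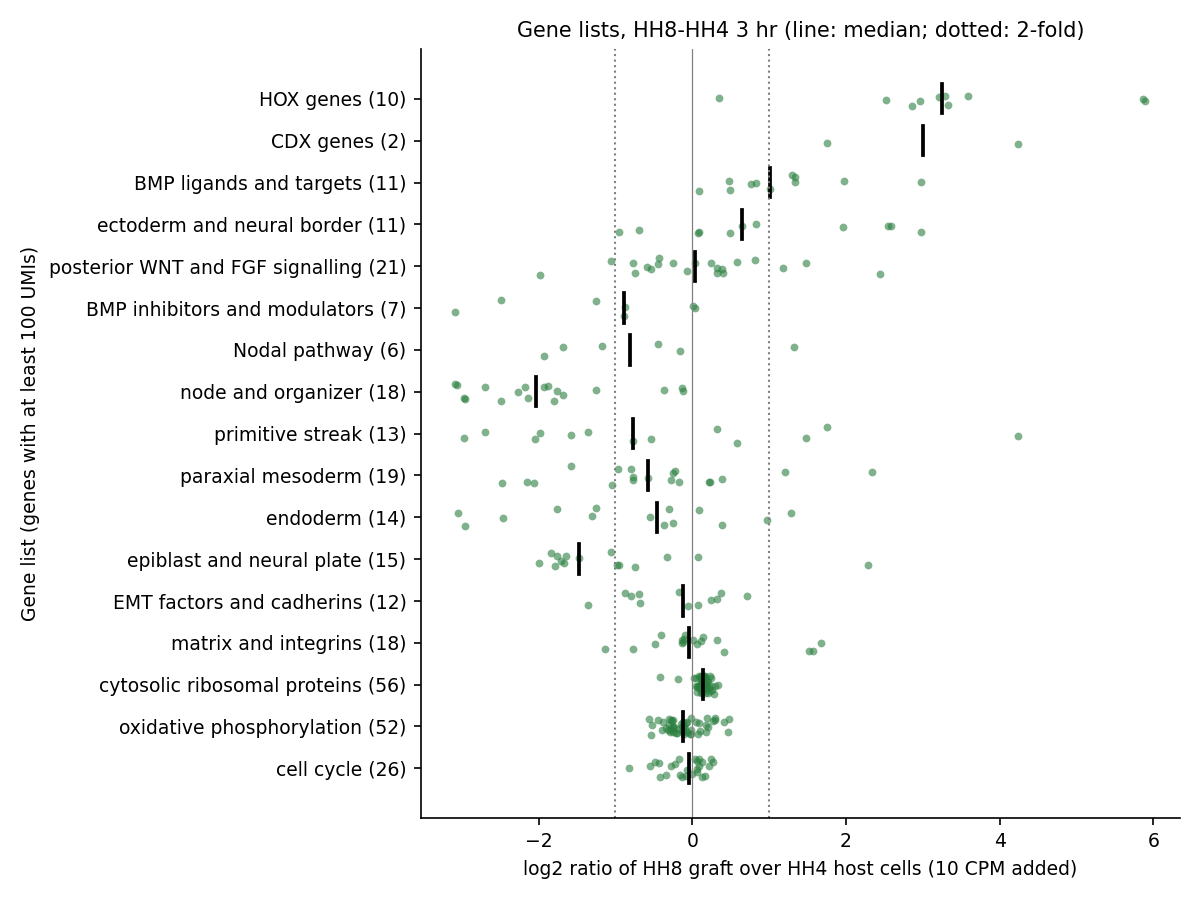
The log2 ratio of HH8 graft over HH4 host cells for each gene with at least 100 UMIs in 17 gene lists, with the number of genes in brackets, the median of each list as a line and 2-fold as dotted lines. The median was 3.25 for HOX genes, 1.01 for BMP ligands and targets, −2.04 for the node and organizer and 0.14 for ribosomal proteins.

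Markers of other cell types were present in both groups. Summed over each list, blood and endothelium markers held 165 CPM in graft and 36.9 CPM in host cells, with HBE1, RUNX1 and SPI1 at 0 UMIs, and 2 of the 3 genes compared, EGFL7 and LMO2, were at least 2-fold higher. Over single cells that sum ranged from 0 to 4770 CPM in graft and from 0 to 368 CPM in host cells. Cardiac markers held 722 and 581 CPM with 0 of 3 genes past 2-fold. Lateral plate markers held 292 and 130 CPM with 2 of 5 genes higher, LMO2 among them, and TBX4 and TBX20 at 0 UMIs. Notochord markers held 811 and 4193 CPM, with 5 of 6 genes lower, several of which are also in the node list. Neural crest markers held 733 and 706 CPM, with 1 of 5 genes higher (MSX1) and 2 lower (FOXD3 and SNAI2). Intermediate mesoderm markers held 61.8 and 72.5 CPM, with PAX2 higher and LHX1 lower. The part of such cells in the differences above was not tested, and in sums over cells, fewer cells of a kind and less RNA per cell cannot be told apart.

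Graft cells were not uniform. The 14 graft cells with more CDH1 than CDH2 UMIs held 4550 CPM of FABP7, 839 CPM of MSX1, 340 CPM of DLX5 and 210 CPM of TFAP2A, against 1180, 398, 48.1 and 10.5 CPM in the 91 with more CDH2. The same 91 cells held 558 CPM of PTN, 92.2 CPM of MEOX1 and 91.1 CPM of MSGN1, against 28.4, 0 and 17.0 CPM in the 14. HOX levels were closer, at 2878 and 1560 CPM of HOXA7, 1188 and 943 CPM of HOXB8 and 675 and 523 CPM of CDX4. Among cells with more CDH2 than CDH1 UMIs alone, 91 graft and 199 host cells, 76 genes were at least 2-fold higher and 113 lower in graft cells, 69 and 104 of which were among the 86 and 116. KRT7, a keratin, was at −0.46 among these cells and at 1.28 over all cells.

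Of the 91 graft cells with more CDH2, 9 had no UMI of HOXA7 or HOXB8, chosen by that after the values were seen, and no other graft cell lacked both. They held 330 of the 1011 PTN UMIs and 70 of the 167 MEOX1 UMIs of the 91, and the rest of the 91 were at 409.8 CPM of PTN and 58.4 CPM of MEOX1. Their depth was a median of 17334 UMIs and they held 14 to 50 eGFP UMIs. They had 0 UMIs of CDX2, WNT3A, HES5, HOXA6 and HOXA9, but a HOXB5 UMI in 8 of 9, at 270 CPM (193 to 367). PTN was at 2224 CPM in them, against 332 CPM in the other 107 graft cells, the endoderm and heart factor GATA5 at 492 and 53.1 CPM, CER1 at 566 and 26.3 CPM and MEOX1 at 472 and 45.3 CPM. They were thus eGFP-positive cells of ordinary depth that lacked some HOX genes but carried HOXB5. Without them, 85 genes were at least 2-fold higher and 113 lower in graft cells, and the log2 ratio was 0.62 for MEOX1 and 2.83 for PTN.

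Set beside HH8-HH4 0 hr, with 2029 graft and 1726 host cells, most of the differences at 3 hr were present at grafting. There, 79 of 4387 genes (1.8%) were at least 2-fold higher and 181 (4.13%) lower in graft cells. Of the 86 higher genes at 3 hr, 47 (54.7%) were also higher at 0 hr, which is 59.5% of those at 0 hr, and of the 116 lower genes 93 (80.2%) were also lower, which is 51.4% of those at 0 hr. Across 3542 genes the log2 ratios at 3 hr and 0 hr had a Pearson r of 0.805, and 0.774 over 3529 genes without HOX, CDX and HINTW, as a description across genes, which are not replicates. Each time point was 1 library of separate embryos, with medians of 19188 and 8838 UMIs per graft cell at 3 hr and 0 hr, so that time and library cannot be told apart.

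HOX levels in graft cells were set side by side at both times. HOXA7 was at 2434 CPM in graft and 24.5 CPM in host cells at 0 hr, and at 1794 and 20.3 CPM at 3 hr. HOXB8 was at 1163 and 14.8 CPM at 0 hr, and at 999.5 and 7.33 CPM at 3 hr. Graft cells at 0 hr and 3 hr held 15.5 and 47.1 CPM of HOXC9, 6.82 and 22.9 CPM of HOXC8, 13.9 and 31.6 CPM of HOXD8 and 61.9 and 106 CPM of HOXB5. Other members were nearly level or lower at 3 hr, with 53.4 and 65.3 CPM of HOXA9, 162 and 159 CPM of HOXA4, 131 and 92.1 CPM of HOXA5, 139 and 108 CPM of HOXA6 and 77.4 and 35.9 CPM of HOXA2. HOXD4 was at 69.4 CPM in graft cells at 0 hr and at 74.8 CPM at 3 hr. Whether these differences followed position along the clusters was not tested, since each time was 1 library.

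Streak and mesoderm genes differed more between the times. T was at 1125 CPM in graft and 1600 CPM in host cells at 0 hr, a log2 ratio of −0.50, and at 476 and 2004 CPM at 3 hr, a ratio of −2.05. MESP1 had log2 ratios of 0.13 at 0 hr and −2.06 at 3 hr, and SNAI2 of −0.41 and −1.36. CHRD was at 21.98 and 435 CPM at 0 hr and at 186 and 1647 CPM at 3 hr, so that both sums were higher at 3 hr. In the graft at 3 hr, 1 cell held 90 of the 429 CHRD UMIs. CER1 and SOX17 differed less at 3 hr, with log2 ratios of −3.90 at 0 hr and −1.26 at 3 hr, and of −4.45 and −2.46. Both 3 hr graft sums rest much on few cells. The 9 graft cells without HOXA7 or HOXB8 held 59.6% of the CER1 UMIs, and without them its log2 ratio was −2.22. For SOX17, 1 graft cell held 39 of the 68 UMIs.

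Several genes were past 2-fold higher in graft than host cells at 3 hr but not at 0 hr. PTN was at 164 CPM in graft and 114 CPM in host cells at 0 hr, a log2 ratio of 0.50 against 3.27 at 3 hr. FN1 was at 372 and 276 CPM at 0 hr, a ratio of 0.41 against 1.58 at 3 hr. MNX1, a homeodomain factor, had log2 ratios of 0.14 and 2.34, WNT8A of 0.28 and 1.48 and NOTCH1 of 0.39 and 1.45. At 0 hr and 3 hr, WNT8A was at 326 and 375 CPM in graft and at 267 and 128 CPM in host cells. NOTCH1 was at 240 and 278 CPM in graft and at 181 and 95.1 CPM in host cells. For WNT8A and NOTCH1 the host level thus differed more between the times than the graft level. The ratios of MSX1 and MSX2 ran the other way, at 2.96 and 4.43 at 0 hr and at 1.98 and 2.97 at 3 hr. None of these differences between the times was tested.

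**Figure D5:**
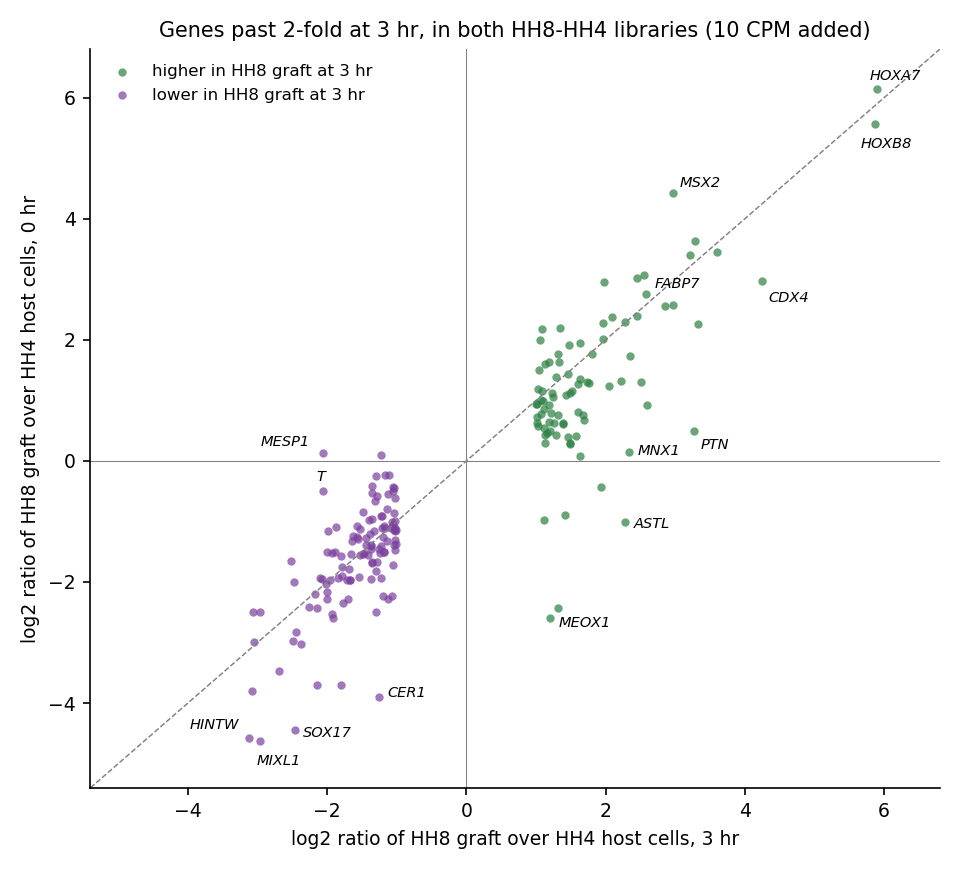
The log2 ratio of HH8 graft over HH4 host cells at 3 hr (horizontal) and 0 hr (vertical) for the 86 genes at least 2-fold higher and the 116 at least 2-fold lower at 3 hr, with equal ratios on the dashed line. HOXA7 lay at 5.89 and 6.15, T at −2.05 and −0.50, PTN at 3.27 and 0.50 and MEOX1 at 1.20 and −2.59.

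In HH4-HH4 3 hr, where donor and host were of the same stage, graft and host cells differed at fewer genes and at different ones. With 72 graft and 181 host cells, 32 of 3840 genes (0.833%) were at least 2-fold higher and 11 (0.286%) lower in graft cells. Of the 86 genes higher in the HH8 graft, 1 was also higher in the HH4 graft, with a median log2 ratio of −0.09, and HOXA7 was at −0.07, HOXB8 at −0.95 and CDX4 at −0.44. Of the 116 lower genes 115 were measured there, of which 5 were also lower and 16 were higher, the last including MIXL1 at 4.49, SOX17 at 1.86 and EOMES at 1.35. Without its deepest barcode, which alone held 551194 UMIs, 2 of the 86 were higher, 6 of the 115 lower and 20 higher, and MIXL1 was at 4.68.

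Some levels of the HH8 graft at 3 hr were also found in HH4 cells of HH4-HH4 3 hr. CDX4, at 556 CPM in the HH8 graft, was at 383 CPM (365 to 402) in HH4 graft and 525 CPM (509 to 541) in HH4 host cells there. PTN, at 454 CPM in the HH8 graft, was at 456 CPM (436 to 477) and 571 CPM (555 to 588), and WNT8A, at 375 CPM in the HH8 graft, at 309 and 366 CPM. For these genes the HH8 graft was thus high beside the host cells of its own library, at 19.9, 38.1 and 128 CPM, and not beside all HH4 cells. HOXA7 was at 1.89 and 2.499 CPM and HOXB8 at 42.8 and 92.3 CPM in HH4 graft and host cells, against 1794 and 999.5 CPM in the HH8 graft. Among lower genes, the comparison with HH4-HH4 3 hr was mixed. HH4 graft and host cells held 393 and 7.997 CPM of MIXL1, 56.3 and 15.99 CPM of EOMES and 38.3 and 12.2 CPM of SFRP1. The HH8 graft, at 279, 49.7 and 35.03 CPM, was thus above these host cells, though below those of its own library. CHRD was at 522 and 305 CPM, MSGN1 at 845 and 1158 CPM and SOX17 at 218 and 52.7 CPM. For these the HH8 graft was lower, at 186, 77.0 and 29.4 CPM. These levels come from separate libraries of 1 pool each, so that library and condition cannot be told apart.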

How the data were processed

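Single-cell RNA-sequencing libraries were made by the authors with the 10x Genomics 3′ workflow, and the deposited values are UMI counts per gene and barcode, made by the authors with CellRanger 6.1.1 on galGal6 and not normalised. Sums of UMIs over graft and over host cells were scaled to 1000000, with exact Poisson 95% intervals, and log2 ratios were taken after adding 10 CPM. Genes with at least 100 UMIs were compared, and the text names the 15 largest and 15 smallest log2 ratios and members of 32 gene lists with at least 30 UMIs. Other genes named were chosen after their values were seen, and some genes that meet the rule are not reported here. The members and lists were chosen with earlier results of these data known. A binomial interval was used for shares and for ratios of UMIs, and cells were thinned once to 2000 UMIs. Doublets were not called, and leaving out the deepest 5% of barcodes was tried, among 18 alternatives. Barcodes had at least 500 UMIs as deposited. HH4-HH4 0 hr was used for barcodes only. Python 3.11.15, numpy 2.4.6, scipy 1.17.1, pandas 2.3.3 and matplotlib 3.10.9 were used, and the sums were tested on simulated data.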

Additional observations from a re-analysis of the deposited data

Results flagged for a closer look

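MEOX1 had a log2 ratio of graft over host cells of 1.20 at 3 hr and of −2.59 at 0 hr, so that it was on opposite sides of the host level at the 2 times. At 3 hr, 9 graft cells without HOXA7 or HOXB8 held 41.7% of its graft UMIs, and its log2 ratio was 0.62 without them.

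ASTL had log2 ratios of 2.28 at 3 hr and −1.01 at 0 hr, and 1 graft cell held 137 of its 287 graft UMIs at 3 hr. Neither of these differences between times was tested, since each time point was 1 library.

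HOXA7 was at 618 CPM in the 534 barcodes under 2000 UMIs, which were left out, against 20.3 CPM in host cells. In those of them with 0 eGFP UMIs it was at 545 CPM and CHRD at 1215 CPM, levels that lie between those of graft and host cells for both genes.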

How the results depend on the processing

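The counts of 86 higher and 116 lower genes depended on who counts as a graft cell. With 1 eGFP UMI enough, which adds 61 barcodes, 48 genes were higher and 18 lower, 72.7% of calls being higher in place of 42.6%, and 7 of the 30 named genes (LOC395991, MIXL1, FOXA2, EOMES, SOX17, SLC2A14 and BCL11A) were within 2-fold. With at least 300 UMIs per gene, which leaves 2459 genes, 47 were higher and 83 lower. Under the other alternatives, 74 to 113 genes were higher and 99 to 157 lower, and all 30 named genes stayed past 2-fold the same way except HINTW, at 0.018 among cells under 200 CPM of it, by construction. KRT7 was at −0.46 and TFAP2A at 0.69 among cells with more CDH2 than CDH1 UMIs. Leaving out for each gene the cell with most of its UMIs, counting cells with up to 2 eGFP UMIs as host, leaving out shared barcodes and leaving out graft cells without HOXA7 or HOXB8 were chosen after seeing the data. No paired analysis was possible because there was 1 library per condition. Low host levels rest on few UMIs, and the 116 graft cells limit what shares can show.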

Other observations

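Several enzymes of sterol and lipid synthesis outside the gene lists, noticed after their values were seen, were at least 2-fold higher in HH8 graft cells at 3 hr. The squalene synthase FDFT1 was at 124 CPM in graft and 49.0 CPM in host cells, CYP51A1, a sterol demethylase, at 171 and 78.1 CPM, MSMO1, a methylsterol oxidase, at 138 and 58.4 CPM, and INSIG1, a regulator of sterol synthesis, at 156 and 64.5 CPM. The fatty acid elongase ELOVL6 was at 159 and 29.7 CPM. Their log2 ratios were 1.18, 1.04, 1.11, 1.15 and 2.09 at 3 hr and lay between 0.45 and 2.37 at 0 hr. Components and targets of hedgehog signalling, noticed in the same way, were also higher in graft cells, GLI2 at 34.6 and 4.61 CPM, GLI3 at 57.5 and 20.7 CPM and the receptor PTCH1 at 37.6 and 12.1 CPM, while the ligand SHH was at 1.73 and 12.6 CPM. Ligands of the transforming growth factor family TGFB2 and TGFB3 were at 61.4 and 20.9 CPM and at 58.8 and 17.6 CPM. These genes were picked for how they differed and were not tested as groups.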
